A study of Mus musculus with 16 samples.

Results

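A group of 10 genes of the endoplasmic reticulum (ER) was followed in RNA from MC38 tumours: *Hspa5*, *Hsp90b1*, *Pdia4*, *Pdia6*, *Calr*, *Dnajb9*, *Herpud1*, *Sdf2l1*, *Xbp1* and *Atf6*. They were taken by gene symbol from a named list of ER chaperones and unfolded protein response genes, and are 10 of the 18480 entries of each library. The rule takes no measured value, but the genes were chosen with earlier results of these data known. Each of the 10 had at least 1 FPKM, a measure of RNA level per transcript length and library size, in 4 or more libraries and so was among the 11868 genes tested. MC38 is a colon carcinoma line of the mouse, and in all 16 libraries the RNA came from a graft of this 1 line under the skin of mice. The labels give 4 libraries each to exercise, to anti-PD-L1 antibody, to exercise together with the antibody (here the combination) and to control tumours. The sources used here do not give the exercise regimen, the antibody dose, the mouse strain or the age of the animals. The antibody is named as in the labels, although the title of the series refers to PD-1 blockade. Whether each library stands for an animal of its own is not stated, so p-values measure no more than the spread among these samples, which may be technical.

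The ER folds secreted and membrane proteins. When unfolded proteins accumulate there, the chaperone BiP (*Hspa5*) leaves the sensors IRE1, PERK and ATF6: IRE1 splices *Xbp1* mRNA into the form that encodes an active transcription factor, PERK slows translation and favours ATF4 and CHOP (*Ddit3*), and ATF6 moves to the Golgi, where proteases release its active fragment. XBP1 and ATF6 raise transcription of chaperones and of genes for ER-associated degradation, while ATF4 and CHOP act on amino acid supply, redox balance and cell death. FPKM per gene do not separate spliced from unspliced *Xbp1*, and cleavage of ATF6 is not seen in RNA.

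Among the 10 genes, 0 passed an adjusted p of 0.05 (limma) in any comparison between the groups. Exercise tumours had the lowest mean of the 4 groups for 7 of the 10, and anti-PD-L1 tumours had the highest mean for 7. The share of all tested genes with this order is not given here. Without anti-PD-L1 library 4, anti-PD-L1 minus control was above 0 for 5 of the 10 and below for 5. With control library 2 left out as well, it was above 0 for 8 and below for 2. Exercise minus control was above 0 for 3 and below for 7 without control library 2. Without control libraries 1 and 2, it was above 0 for 6 and below for 4. The clearest separations were those of *Hsp90b1* and *Herpud1*, whose exercise libraries all lay below all anti-PD-L1 libraries and below all combination libraries. Of all tested genes, 12.5% and 6.94% were without overlap in these comparisons, which share the exercise libraries. Of the genes listed for the PERK, ATF4 and CHOP branch, which are not among the 10, *Trib3* and *Ddit3* passed the threshold. Both had higher values under anti-PD-L1 than with exercise, and the part of PERK in this was not tested. In that comparison 1.58% of all tested genes passed. The call of *Trib3* held in 24 of 26 alternative settings and that of *Ddit3* in 13.

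The FPKM of a library summed to 478672 to 529732, of which the 10 genes together took 0.254% to 0.351%. Read depth is unknown from FPKM. A pair of libraries stood apart in these genes: anti-PD-L1 library 4 was the highest of all 16 for 6 of the 10, and control library 2 for 3. Both also stood apart in markers of other cells. Summed red blood cell markers reached 4071 FPKM in anti-PD-L1 library 4, against 68.8 to 792 in the other 15 libraries. Control library 2 held 292 FPKM of skeletal muscle markers, against 1.95 to 12 in the others, and 1083 FPKM of macrophage markers, against 161 to 819. Its endothelial markers summed to 93.0 FPKM, against 17.5 to 48.4. The part of these cells in the values below was not tested. Counts by sign of the 10 genes are also given without 1 or both libraries, where a comparison includes them. Marker differences were fitted with both libraries, apart from the alternative settings given for *Nkg7*. Of 5 epithelial markers, *Epcam*, *Krt8* and *Krt18* had group means of at most 0.115 FPKM. *Cdh1*, with group means of 1.73 to 2.30 FPKM, and *Krt19*, with 0.138 to 2.25 FPKM, passed the filter. The 5 summed to 1.51 to 8.07 FPKM per library, so these epithelial markers were low in these carcinoma grafts. Plasma cells run a strong secretory program, but of 9 plasma and B cell markers 1 passed the filter, *Sdc1*, which other cells also express. In whole tumour RNA, fewer cells of a type and less RNA per cell cannot be told apart.

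Many unfolded protein response genes carry an ER stress response element in their promoters, to which ATF6 and XBP1 bind together with the factor NF-Y. The promoters that hold such an element are shown so that it can be read in its surroundings. RefSeq promoter windows (GRCm38.p6) were at hand for 9 of the 10 genes, all but *Atf6*, and the 250 bases before the gene start were searched on both strands. ERSE, spelled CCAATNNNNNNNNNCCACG, lay in 4 of the 9 windows, against 37 of 32851 RefSeq windows of the same length (0.113%). ERSE-II, spelled ATTGGNCCACG, lay in 1 of the 9, against 10 of all windows (0.0304%). UPRE, spelled TGACGTGG, lay in 0 of the 9 and in 185 of all windows (0.563%). Because these elements are known from genes of this response, the shares describe the windows and test nothing. No hit of one element overlapped a hit of another in these genes. Capitals below mark the fixed letters of ERSE or ERSE-II; in *Hsp90b1* and *Calr* a copy on the opposite strand reads as its reverse complement.
Hspa5, chr2:34771840-34772089, plus strand: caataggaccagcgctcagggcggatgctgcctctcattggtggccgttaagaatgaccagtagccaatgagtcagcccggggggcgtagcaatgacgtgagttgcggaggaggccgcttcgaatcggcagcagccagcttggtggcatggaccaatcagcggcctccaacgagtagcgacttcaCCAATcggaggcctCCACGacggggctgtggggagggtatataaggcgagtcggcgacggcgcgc
Hsp90b1, chr10:86705445-86705694, minus strand: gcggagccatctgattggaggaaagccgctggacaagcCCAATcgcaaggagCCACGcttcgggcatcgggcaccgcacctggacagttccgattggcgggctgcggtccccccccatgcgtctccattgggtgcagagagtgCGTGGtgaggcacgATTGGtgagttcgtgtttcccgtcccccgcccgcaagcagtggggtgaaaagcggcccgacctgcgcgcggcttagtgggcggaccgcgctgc
Pdia6, chr12:17266339-17266588, plus strand: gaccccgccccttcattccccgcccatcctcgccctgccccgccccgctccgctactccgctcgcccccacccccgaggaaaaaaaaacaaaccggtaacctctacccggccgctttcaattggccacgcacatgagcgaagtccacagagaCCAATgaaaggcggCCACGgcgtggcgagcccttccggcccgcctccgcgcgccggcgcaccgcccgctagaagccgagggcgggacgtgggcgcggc
Calr, chr8:84846932-84847181, minus strand: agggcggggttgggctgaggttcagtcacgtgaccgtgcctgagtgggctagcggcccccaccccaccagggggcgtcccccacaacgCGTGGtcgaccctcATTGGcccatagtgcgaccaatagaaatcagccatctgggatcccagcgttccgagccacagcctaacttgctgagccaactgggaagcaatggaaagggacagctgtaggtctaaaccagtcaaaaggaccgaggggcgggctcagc
Herpud1, chr8:94386179-94386428, plus strand: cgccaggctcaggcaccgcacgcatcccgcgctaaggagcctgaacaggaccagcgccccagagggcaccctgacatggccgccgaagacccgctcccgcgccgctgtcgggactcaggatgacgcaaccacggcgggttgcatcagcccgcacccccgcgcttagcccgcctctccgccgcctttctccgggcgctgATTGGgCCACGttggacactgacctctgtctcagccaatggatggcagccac

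Read in the direction of the element, the 6 copies differ in the spacer, shown in lower case. *Hsp90b1* alone of the 9 held a pair.
Hspa5, ERSE, 65 to 47 bases before the start: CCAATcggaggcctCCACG
Hsp90b1, ERSE, 212 to 194 bases before the start: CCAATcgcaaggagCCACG
Hsp90b1, ERSE on the opposite strand, 107 to 89 bases before the start: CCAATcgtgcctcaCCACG
Pdia6, ERSE, 98 to 80 bases before the start: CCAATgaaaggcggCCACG
Calr, ERSE on the opposite strand, 162 to 144 bases before the start: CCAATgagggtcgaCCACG
Herpud1, ERSE-II, 52 to 42 bases before the start: ATTGGgCCACG
A match is a run of letters and not a binding site, and windows without a match say nothing of the factors.

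The 10 genes spanned a wide range of levels on the FPKM scale, which is per length. *Calr* had the highest mean over the 16 libraries, 526 ± 51.7 FPKM (SD), above 99.0% of the tested genes. *Hspa5* followed with 292 ± 55.3 FPKM and *Hsp90b1* with 285 ± 52.3 FPKM. *Pdia6* averaged 116 ± 12.4 FPKM. *Pdia4*, *Herpud1* and *Xbp1* lay close together at 58.0 ± 10.7, 55.6 ± 12.6 and 54.8 ± 9.75 FPKM, within their spread. The least abundant were *Dnajb9* with 16.9 ± 3.76 FPKM, *Sdf2l1* with 13.1 ± 3.14 FPKM and *Atf6* with 10.3 ± 1.35 FPKM. Relative to its mean, *Sdf2l1* varied most between libraries, with a coefficient of variation of 24.1%, and *Calr* least, with 9.83%. The figure for *Sdf2l1* was 14.3% without control library 2, where *Herpud1* varied most with 23.4% and *Pdia6* least with 7.27%.

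**Figure D1:**
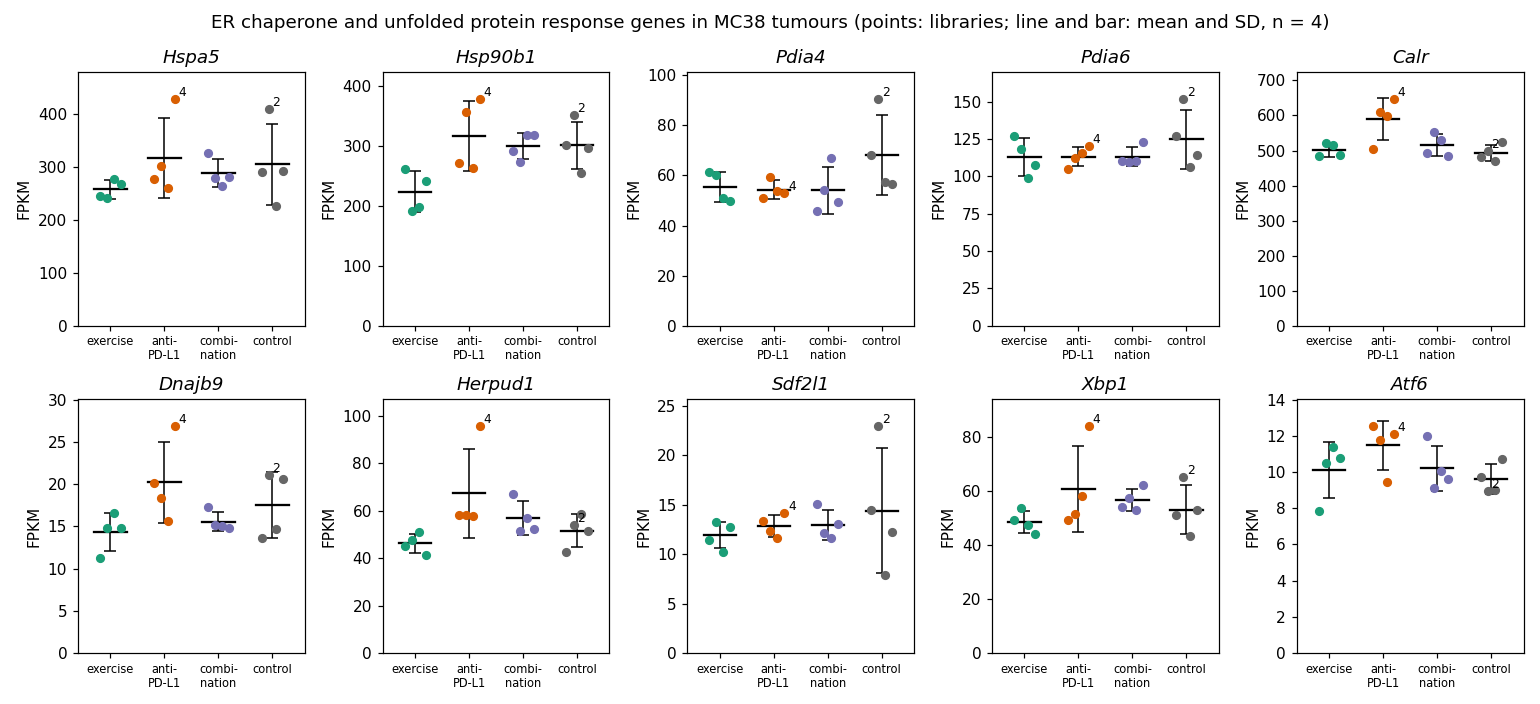
FPKM (y axes, from 0) of each of the 10 genes in each library, by group; points are libraries, the line and bar are the mean and SD of 4, and anti-PD-L1 library 4 and control library 2 carry their numbers. Exercise means were the lowest for 7 genes, and 1 library often sets the top of the anti-PD-L1 or control group.

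*Hspa5* (chr2:34772090-34776529) encodes BiP, the ER Hsp70 chaperone that binds the sensors. It had 246, 241, 278 and 267 FPKM in exercise tumours and 278, 303, 261 and 429 FPKM in anti-PD-L1 tumours. In combination tumours it had 327, 279.8, 265 and 282 FPKM, and in control tumours 292, 409.7, 227 and 293 FPKM. The 4 groups overlapped, and the highest values were those of anti-PD-L1 library 4 and control library 2. On the log2(FPKM + 1) scale, used for every fold change here, exercise minus control was -0.21 ± 0.16 (standard error), with an interval of -0.56 to 0.14 at 95% confidence and a limma adjusted p of 0.494. Without control libraries 1 and 2 together this difference was 0.00, and without control library 2 alone it was -0.06.

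*Hsp90b1* (chr10:86690841-86705444) encodes GRP94, the ER Hsp90 chaperone, which folds integrins and Toll-like receptors. It had 262, 191, 198 and 242 FPKM in exercise tumours and 270.5, 356, 263 and 378 FPKM in anti-PD-L1 tumours. In combination tumours it had 291, 273, 318 and 318 FPKM, and in control tumours 302, 350.4, 255 and 296 FPKM. Every exercise library lay below every anti-PD-L1 and every combination library. Exercise and control overlapped, since exercise library 1 exceeded control library 3. Exercise minus control was -0.43 ± 0.14, with an interval of -0.73 to -0.14, an unadjusted p of 0.00616 and an adjusted p of 0.185 (limma). Weighting the libraries by their fit changed this call, with a difference of -0.51 and an adjusted p of 0.0136 (limma). With those weights 19.2% of all tested genes passed in this comparison.

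*Calr* (chr8:84842088-84846931) encodes calreticulin, a lectin chaperone that binds calcium and, on the surface of dying cells, serves as a signal for uptake by phagocytes. Its values were 484, 522, 517 and 487 FPKM in exercise tumours and 505, 611, 599 and 647 FPKM in anti-PD-L1 tumours. Combination tumours had 494, 552, 531 and 485 FPKM, and control tumours had 482, 499.8, 471 and 524 FPKM. Of the anti-PD-L1 libraries, 3 exceeded all libraries of the other groups, and library 1 lay within them. Anti-PD-L1 minus control was 0.25 ± 0.08, with an interval of 0.07 to 0.43 and an adjusted p of 0.112 (limma). Without anti-PD-L1 library 4 it was 0.21, with an adjusted p of 0.291.

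*Pdia4* (chr6:47796141-47813512) encodes ERp72, a protein disulfide isomerase that forms and rearranges disulfide bonds. It had 61.2, 60.2, 50.9 and 49.8 FPKM in exercise tumours and 51.0, 59.6, 54.0 and 53.0 FPKM in anti-PD-L1 tumours. Combination tumours had 45.7, 54.2, 67.0 and 49.6 FPKM, and control tumours had 68.2, 90.5, 57.3 and 56.4 FPKM. All 3 groups overlapped control, whose highest value came from library 2. The combination minus control difference was -0.32 ± 0.14 with an adjusted p of 0.607, and without control library 2 it was -0.17 with an adjusted p of 0.950 (limma). *Pdia6* (chr12:17266589-17284785), for the isomerase P5, ranged from 98.6 to 127 FPKM in exercise, 105 to 121 in anti-PD-L1, 109.5 to 123 in combination and 106 to 152 in control tumours. The group means of *Pdia6* were 113 ± 12.4, 113 ± 6.63, 113 ± 6.51 and 125 ± 19.9 FPKM in that order (SD, n = 4 each), so the groups lay within their spread.

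*Dnajb9* (chr12:44205897-44210068) encodes ERdj4, a co-chaperone of BiP that also holds back IRE1. It had 11.3, 14.8, 16.5 and 14.9 FPKM in exercise tumours and 20.1, 18.4, 15.6 and 26.9 FPKM in anti-PD-L1 tumours. Combination tumours had 17.3, 15.2, 15.03 and 14.8 FPKM, and control tumours had 13.7, 21.1, 14.8 and 20.7 FPKM. Exercise and anti-PD-L1 overlapped in 1 library of each. *Sdf2l1* (chr16:17130138-17132383) encodes a partner of ER Hsp40 proteins. It ranged from 10.3 to 13.3 FPKM in exercise, 11.6 to 14.2 in anti-PD-L1 and 11.7 to 15.1 in combination tumours. Its control range of 7.91 to 23.0 FPKM held all the others, with library 3 at the bottom and library 2 at the top.

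*Herpud1* (chr8:94386429-94395371) encodes a membrane protein of the ER-associated degradation machinery. It had 45.0, 47.7, 51.1 and 41.5 FPKM in exercise tumours and 58.2, 58.3, 57.9 and 95.7 FPKM in anti-PD-L1 tumours. In combination tumours it had 67.1, 51.6, 57.1 and 52.4 FPKM, and in control tumours 42.6, 53.9, 58.9 and 51.3 FPKM. All exercise libraries lay below all anti-PD-L1 libraries and, by a narrow margin, below all combination libraries. The exercise and control ranges overlapped, and anti-PD-L1 library 4 stood far above the other 3 of its group. Anti-PD-L1 minus control was 0.35 ± 0.15 with an adjusted p of 0.174 (limma), and without anti-PD-L1 library 4 it was 0.18 with an adjusted p of 0.47.

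*Xbp1* (chr11:5520641-5525993) encodes the transcription factor downstream of IRE1. It had 49.3, 53.9, 47.2 and 44.0 FPKM in exercise tumours and 49.3, 51.4, 58.2 and 83.9 FPKM in anti-PD-L1 tumours. Combination tumours had 54.0, 57.5, 53.0 and 62.1 FPKM, and control tumours had 51.0, 65.1, 43.5 and 52.8 FPKM. All groups overlapped. *Atf6* (chr1:170704457-170868585), the sensor and transcription factor itself, ranged from 7.84 to 11.4 FPKM in exercise, 9.45 to 12.5 in anti-PD-L1, 9.1 to 12 in combination and 8.94 to 10.7 in control tumours. Its means of 10.1 ± 1.56, 11.5 ± 1.38, 10.2 ± 1.27 and 9.61 ± 0.82 FPKM in that order lay within the spread (SD, n = 4 each).

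In exercise tumours, 8 of the 10 genes had a difference from control below 0 and 2 (*Calr* and *Atf6*) one above 0. The median over the 10 was -0.16, beside a median of -0.02 over all tested genes. None of the 10 passed the adjusted threshold in limma, and 0% of the 11868 tested genes did. At an unadjusted p under 0.05 there was 1 gene of the 10, *Hsp90b1*, beside 18% of all tested genes. Exercise and control did not overlap in 0 of the 10 genes, beside 7.72% of all. The direction of the group depended in part on which control libraries were kept. Without control library 2, the high one, the counts were 7 below and 3 above 0 with a median of -0.05. Without control libraries 1 and 2 they were 4 below and 6 above with a median of 0.01. Control library 1 was not high in these genes, with a median rank of 8 among the 16 libraries. Without control library 2 and anti-PD-L1 library 4 there were 7 below and 3 above. Macrophage markers were below 0 in 8 of 8 genes, with a median of -0.27 and 0 past the threshold, and their part was not tested.

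Under anti-PD-L1, 7 of the 10 genes had a difference from control above 0, led by *Herpud1* with 0.35 and *Calr* with 0.25, and 3 (*Pdia4*, *Pdia6* and *Sdf2l1*) one below. The median was 0.12, against -0.04 over all tested genes. The adjusted threshold was passed by 0 of the 10 and by 0.253% of all tested genes. *Herpud1* and *Calr* were the 2 genes with an unadjusted p under 0.05, beside 23.5% of all. In 0 of the 10 were the groups apart without overlap, beside 10.8% of all. Without anti-PD-L1 library 4 the genes divided into 5 above and 5 below 0, with a median of -0.01. That library was also the one with the high red blood cell markers. Without control library 2 there were 8 above and 2 below with a median of 0.21, and without both libraries 8 above and 2 below with a median of 0.12.

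Markers of other cells differed in this comparison too. Macrophage markers summed to 161 to 411 FPKM in anti-PD-L1 and 227 to 1083 FPKM in control tumours, with 8 of 8 below 0, a median difference of -1.22, 6 at an unadjusted p under 0.05 and 0 past the adjusted threshold. Endothelial markers summed to 23.1 to 36.0 FPKM in anti-PD-L1 and 25.8 to 93.0 FPKM in control tumours, with 4 of 4 tested below 0 and a median of -0.51. The upper ends of the macrophage and endothelial control ranges came from control library 2. *Nkg7*, a granule protein gene of cytotoxic cells and the 1 tested gene of 7 T and NK cell markers, ranged from 2.49 to 7.13 FPKM in anti-PD-L1 and from 0.51 to 1.48 FPKM in control tumours. It rose by 1.26 ± 0.25 with an adjusted p of 0.0436 (limma), a call kept in 10 of 26 alternatives. The call was lost on leaving out any 1 of control libraries 1, 2 and 3, exercise libraries 2, 3 and 4, combination library 2 and each anti-PD-L1 library, and the adjusted p without control library 2 was 0.181 (limma). Over the 26 alternatives the difference of *Nkg7* lay between 1.00 and 1.85. The part of these cells in the differences of the 10 genes was not tested.

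Between the combination and control, 5 of the 10 genes had a difference above 0 and 5 one below. The median was -0.03, equal to the -0.03 of all tested genes. In limma, 0 of the 10 and 0% of all tested genes passed the adjusted threshold. *Pdia4* alone had an unadjusted p under 0.05, beside 8.2% of all tested genes. Groups without overlap were found for 0 of the 10, beside 3.83% of all. The difference of *Hsp90b1* was 0.00 ± 0.14, with an interval of -0.29 to 0.29, and that of *Hspa5* was -0.05 ± 0.16. These intervals leave room for changes of either sign. With control library 2 and anti-PD-L1 library 4 left out, there were 7 above and 3 below, with a median of 0.07. Markers were below 0 in 8 of 8 macrophage, 4 of 4 endothelial and 5 of 5 red blood cell genes, with medians of -0.61, -0.69 and -0.99 and 0 past the threshold, and their part was not tested.

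**Figure D2:**
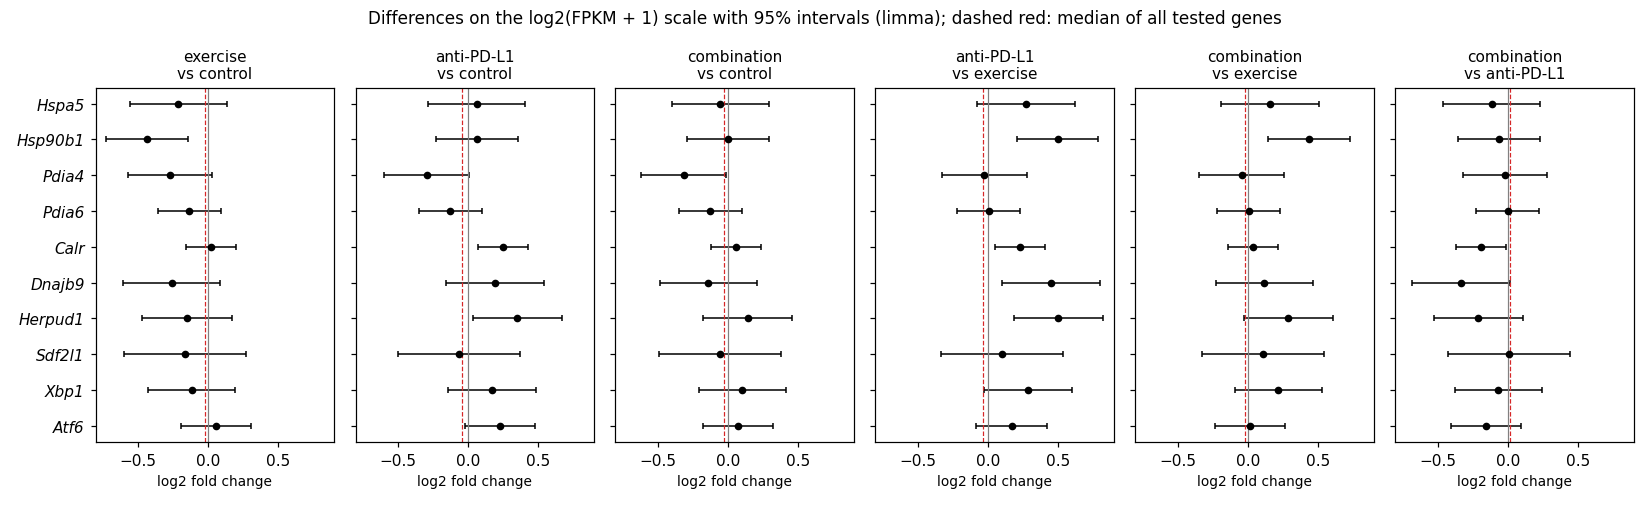
Differences of the 10 genes in 6 comparisons on the log2(FPKM + 1) scale (x axes), as points with 95% intervals from limma, the first group named minus the second; the dashed line is the median of all tested genes. Differences were the largest for *Hsp90b1* and *Herpud1* in anti-PD-L1 against exercise, 0.50 each.

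The widest differences of the 10 genes lay between anti-PD-L1 and exercise tumours, groups that share neither libraries nor treatment. In anti-PD-L1 tumours 9 of the 10 genes were above their exercise level, with a median of 0.25 against -0.04 over all tested genes, and *Pdia4* was at -0.02. The difference of *Hsp90b1* was 0.50 ± 0.14 with an adjusted p of 0.0690, and that of *Herpud1* 0.50 ± 0.15 with an adjusted p of 0.0830 (limma). *Dnajb9* differed by 0.45 ± 0.16 with an adjusted p of 0.127, and *Calr* by 0.23 ± 0.08 with an adjusted p of 0.133. So 0 of the 10 passed the adjusted threshold, beside 1.58% of all tested genes. These 4 had an unadjusted p under 0.05, beside 22.8% of all. *Hsp90b1* and *Herpud1* did not overlap between the groups, which makes 2 of the 10 beside 12.5% of all, a share near that of the genes at large.

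Markers of other cells differed in the same comparison. Macrophage markers summed to 161 to 411 FPKM in anti-PD-L1 and 335 to 558 FPKM in exercise tumours, with 7 of 8 below 0, a median difference of -0.97 and 0 past the threshold. Fibroblast markers summed to 764 to 1504 FPKM in anti-PD-L1 and 1014 to 2074 FPKM in exercise tumours, with 6 of 7 tested below 0, a median difference of -0.79 and 0 past the threshold. The summed T and NK cell markers were low in both, 4.6 to 13.5 FPKM in anti-PD-L1 and 3.82 to 4.05 FPKM in exercise tumours, without overlap. The part of these cells in the differences of the 10 genes was not tested.

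Single libraries moved these values. Without anti-PD-L1 library 4, 8 of the 10 were above their exercise level with a median of 0.13, *Hsp90b1* was at 0.41 with an adjusted p of 0.193 and *Herpud1* at 0.33 with 0.200 (limma). *Hsp90b1* passed the threshold without anti-PD-L1 library 3, with a difference of 0.58 and an adjusted p of 0.0432, and with library weights, with 0.56 and 0.0239 (limma). Under these alternatives 3.56% and 6.93% of all tested genes passed, beside the 1.58% given above. *Hsp90b1* was the only one of the 10 genes to pass under any alternative, here and against control. Without both control library 2 and anti-PD-L1 library 4, 0 of the 10 passed in any of the 7 comparisons.

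In the combination, 9 of the 10 genes were above their level with exercise alone, with a median of 0.11 beside -0.02 over all tested genes. *Hsp90b1* differed by 0.44 ± 0.14, with an interval of 0.15 to 0.73 and an adjusted p of 0.219 (limma), and *Herpud1* by 0.29 ± 0.15 with an adjusted p of 0.411. The adjusted threshold was passed by 0 of the 10 and 0% of all tested genes. An unadjusted p under 0.05 was found for *Hsp90b1* alone, beside 13.6% of all. *Hsp90b1* and *Herpud1* were without overlap, 2 of the 10 beside 6.94% of all. The comparisons of the combination and of anti-PD-L1 with exercise share the exercise libraries, so the low exercise values of both genes enter both. Fibroblast markers summed to 363 to 1516 FPKM in combination and 1014 to 2074 FPKM in exercise tumours, with 7 of 7 below 0 and a median of -0.76. Red blood cell markers summed to 68.8 to 323 FPKM in combination and 164 to 792 FPKM in exercise tumours, with 5 of 5 below 0 and a median of -1.04. Endothelial markers summed to 17.5 to 30.5 FPKM in combination and 31.2 to 39.3 FPKM in exercise tumours, without overlap, and 7 of 8 macrophage markers were below 0 with a median of -0.26. None of these markers passed the threshold, and their part in the differences of the 10 genes was not tested.

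Against anti-PD-L1 alone, 8 of the 10 genes were lower in the combination in sign, with a median of -0.09 beside 0.02 over all tested genes. The 3 widest differences were those of *Dnajb9*, -0.33 ± 0.16 with an adjusted p of 0.968, *Herpud1*, -0.21 ± 0.15, and *Calr*, -0.19 ± 0.08, each again with an adjusted p of 0.968 (limma). None of the 10 and 0% of all genes passed the adjusted threshold. *Calr* alone had an unadjusted p under 0.05, beside 3.94% of all. The groups overlapped in each of the 10, beside 2.24% of all genes without overlap. Leaving out anti-PD-L1 library 4 gave 5 genes on each side of 0 and a median of 0.00. Red blood cell markers were below 0 in 5 of 5 genes with a median of -1.18. They summed to 4071 FPKM in anti-PD-L1 library 4 and to 78.05 to 498 FPKM in the other anti-PD-L1 libraries. In the combination they summed to 68.8 to 323 FPKM, and the difference was not fitted without that library. Macrophage markers were above 0 in 6 of 8 genes with a median of 0.63. None of these markers passed the threshold, and their part was not tested.

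The interaction asks whether exercise acted differently with and without the antibody: it is the combination minus anti-PD-L1 difference less the exercise minus control difference. It was above 0 for 6 of the 10 genes and below 0 for 4, with a median of 0.07 beside 0.03 over all tested genes. *Hsp90b1* had the largest value, 0.37 ± 0.19, with an interval of -0.04 to 0.78 and an adjusted p of 0.406, followed in size by *Pdia4* with 0.25 ± 0.20 and an adjusted p of 0.553 and *Calr* with -0.22 ± 0.12 and an adjusted p of 0.418 (limma). The adjusted threshold was passed by 0 of the 10 and 0% of all genes. At an unadjusted p under 0.05 there were 0 of the 10, beside 13.1% of all. Without anti-PD-L1 library 4 there were 8 above and 2 below 0 with a median of 0.19. Leaving out both that library and control library 2 gave 6 above and 4 below with a median of 0.08. Without control library 2 alone the genes divided into 3 above and 7 below 0, so the sign of the group was not stable. Macrophage markers were above 0 in 8 of 8 genes with a median of 0.86, and red blood cell markers below 0 in 5 of 5 with a median of -1.26. The red blood cell values include anti-PD-L1 library 4, with 4071 FPKM of these markers, and were not fitted without it. None of these markers passed the threshold, and their part was not tested.

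Between libraries the 10 genes tended to move together, though pairs of other tested genes were not measured for comparison. Over the 16 libraries, which share groups and their scaling, the 45 pairs had a median Pearson correlation of 0.47 on the log2(FPKM + 1) scale, and 39 were above 0. The highest was 0.78, between *Hspa5* and *Dnajb9*, and the lowest -0.49, between *Pdia6* and *Atf6*. *Pdia4* correlated with *Pdia6* at 0.73 and with *Herpud1* at -0.21. With group means subtracted the median was 0.36, so much of the shared movement lay within groups. Without control library 2 and anti-PD-L1 library 4 the median was 0.21, and 6 pairs instead of 18 exceeded 0.5. The libraries that stood apart differed in the genes concerned: control library 2 was highest for *Pdia4*, *Pdia6* and *Sdf2l1*, and anti-PD-L1 library 4 for *Hspa5*, *Hsp90b1*, *Calr*, *Dnajb9*, *Herpud1* and *Xbp1*.

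**Figure D3:**
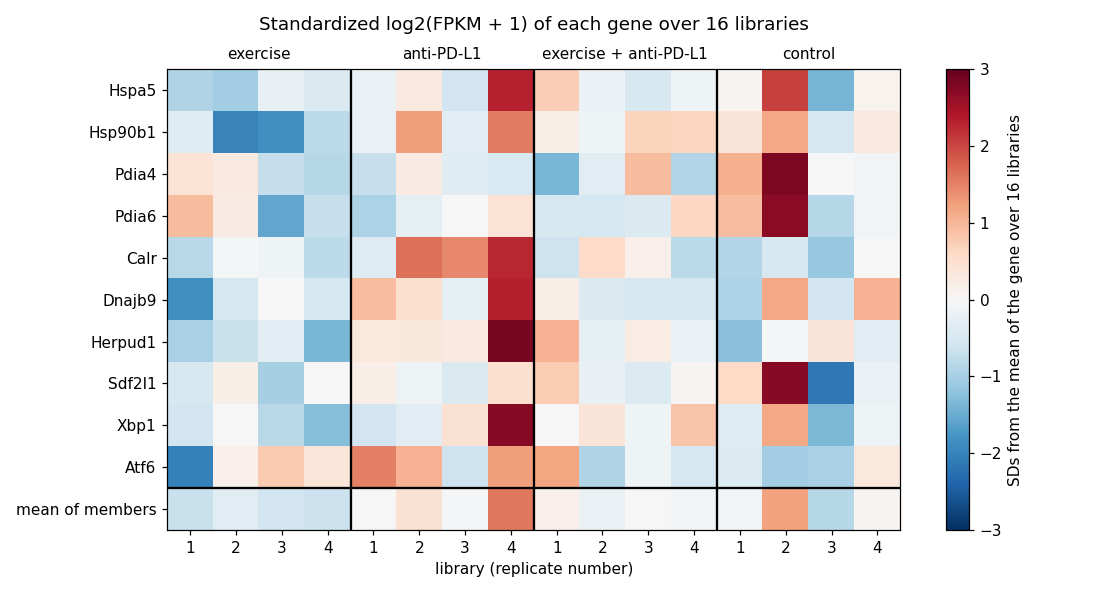
Standardized log2(FPKM + 1) of each gene (rows) in each of 16 libraries (columns, by group and replicate number), in SDs from the mean of the gene, with the mean of the 10 genes in the bottom line. Control library 2 and anti-PD-L1 library 4 stand out as columns of high values, in different genes.

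The genes outside the 10 whose pattern was most like the mean of the standardized 10, over 16 libraries, were *Abcg1* (Pearson correlation 0.93), *Lilr4b* (0.92), *Srgn* (0.87), *Csf2rb2* (0.86), *Ypel2*, *Rnf115*, *Cd53*, *Ctsb*, *Cd200r4* and *Arrdc4* (0.85 each). *Abcg1* encodes a sterol exporter, *Cd53* and *Csf2rb2* encode leukocyte surface proteins, *Srgn* a proteoglycan of leukocyte granules and *Ctsb* a lysosomal protease. Without the 2 libraries that stood apart their correlations lay between 0.46 for *Arrdc4* and 0.84 for *Lilr4b*. None of these genes belonged to the secretory pathway lists.

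Of the other genes of the pathway, the sensors did not pass the threshold between any groups. *Ern1*, which encodes IRE1, had 6.12, 7.09, 7.39 and 8.04 FPKM in exercise and 7.87, 5.64, 7.75 and 7.49 FPKM in control tumours, a difference of 0.00 ± 0.14. *Eif2ak3*, which encodes PERK, differed by -0.09 ± 0.14 between exercise and control, by -0.15 ± 0.14 between anti-PD-L1 and control and by -0.21 ± 0.14 between the combination and control. *Mbtps1*, the site-1 protease that cuts ATF6, had 67.4, 84.1, 77.4 and 76.8 FPKM in exercise and 55.8, 53.3, 66.0 and 62.6 FPKM in control tumours. All exercise values of *Mbtps1* lay above all control values, and the difference of 0.36 ± 0.12 had an adjusted p of 0.187 (limma). Exercise and control were without overlap in 7.72% of all tested genes. *Mbtps2*, the site-2 protease, differed by -0.24 ± 0.10 with an adjusted p of 0.239. Of the 5 genes of this list, 0 passed the threshold in any comparison.

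The list of 10 genes of the PERK, ATF4 and CHOP branch held the only genes of any secretory pathway list to pass. In anti-PD-L1 against exercise tumours 10 of its 10 genes were above 0, with a median of 0.60 beside -0.04 over all tested genes, and 2 passed the adjusted threshold, beside the 1.58% of all. *Trib3*, a pseudokinase induced by ATF4 and CHOP, had 56.2, 59.9, 31.4 and 44.4 FPKM in anti-PD-L1 tumours, against 17.0, 18.2, 21.0 and 16.1 FPKM in exercise tumours. Its groups were apart, and *Trib3* rose by 1.32 ± 0.22 with an adjusted p of 0.0142 (limma). *Ddit3*, which encodes CHOP, had 52.3, 64.3, 48.5 and 105 FPKM in anti-PD-L1 tumours, against 22.2, 32.3, 40.9 and 32.6 FPKM in exercise tumours. It rose by 1.02 ± 0.23 with an adjusted p of 0.0434 (limma), again without overlap. Of all tested genes, 12.5% were without overlap in this comparison.

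The call of *Trib3* held in 24 of 26 alternatives and that of *Ddit3* in 13 of 26. The call of *Ddit3* was lost on leaving out any 1 of control libraries 1, 3 and 4, exercise libraries 1, 2 and 4, combination library 3 and anti-PD-L1 libraries 2 and 4. It was also lost with the replicate number as a block (adjusted p of 0.0838), with only the groups compared (0.0715), without the filter (0.0698) and without control library 2 and anti-PD-L1 library 4 together (0.111, limma). Without exercise library 2 the adjusted p was 0.0603 for *Trib3* and 0.118 for *Ddit3*, and without anti-PD-L1 library 4 it was 0.0506 and 0.112 (limma). The fold changes of both stayed above 0 in all 26, between 1.21 and 1.51 for *Trib3* and between 0.78 and 1.15 for *Ddit3*. *Sesn2*, a stress-induced inhibitor of mTORC1 signalling, differed by 0.90 ± 0.23 with an adjusted p of 0.0603, and *Cebpb* by 0.71 ± 0.19 with an adjusted p of 0.0669. *Atf4* itself averaged 325 ± 68.5 FPKM in anti-PD-L1 and 236 ± 18.0 FPKM in exercise tumours (SD, n = 4 each), a difference of 0.43 ± 0.14 with an adjusted p of 0.0986.

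Set against control, the same list lay below 0 in exercise tumours for 9 of 10 genes, with a median of -0.36 and 0 past the threshold. *Trib3* had 42.4, 25.04, 46.0 and 32.5 FPKM in control tumours, all above the exercise values given above. Exercise and control were without overlap in 7.72% of all tested genes. For *Trib3*, exercise minus control was -0.94 ± 0.22 with an adjusted p of 0.181 (limma). *Sesn2* differed by -0.84 ± 0.23 and *Asns*, the asparagine synthetase under ATF4, by -0.56 ± 0.19, with adjusted p of 0.181 and 0.188. Under anti-PD-L1 the list lay above control for 9 of 10 genes with a median of 0.31, *Ddit3* by 0.75 ± 0.23 with an adjusted p of 0.0971, and *Asns* was the exception at -0.44 ± 0.19. In the combination *Trib3* had 54.0, 33.9, 49.7 and 35.6 FPKM. That was above exercise alone in every library, by 1.19 ± 0.22 with an adjusted p of 0.0995 (limma). Combination and exercise were without overlap in 6.94% of all tested genes. The exercise libraries enter both the anti-PD-L1 and the combination comparison.

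**Figure D4:**
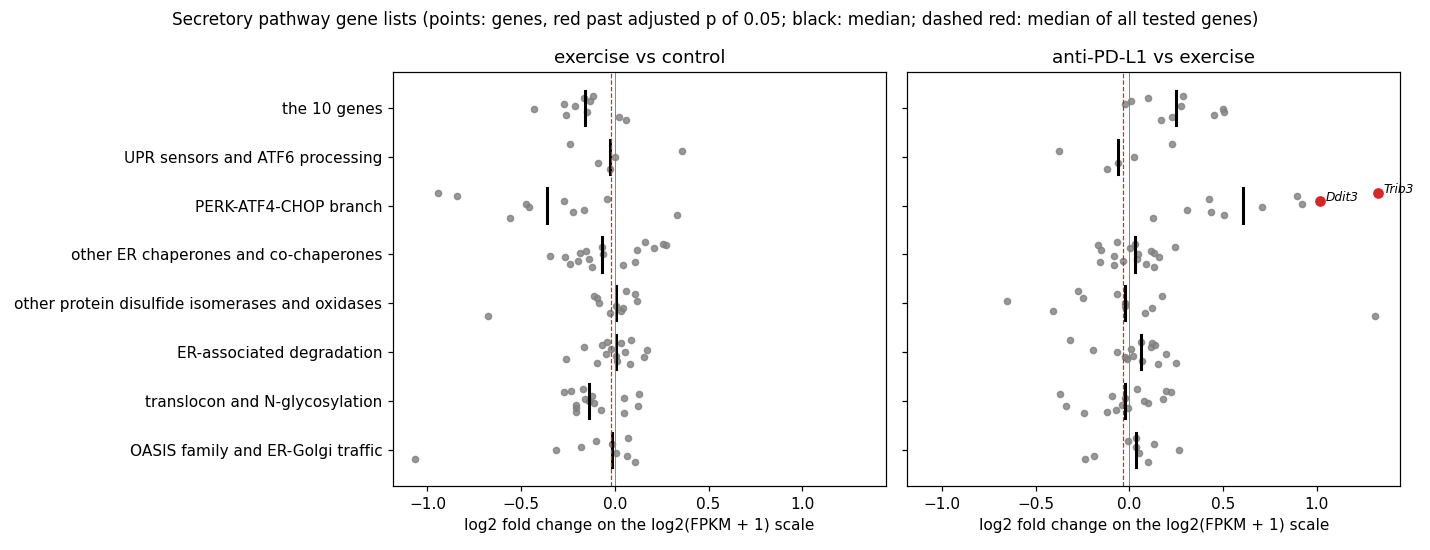
Differences on the log2(FPKM + 1) scale (x axes) of the genes of 8 secretory pathway lists (y axis), in exercise against control and in anti-PD-L1 against exercise; points are genes, the black bar is the list's median and the dashed line the median of all tested genes. *Trib3* and *Ddit3*, in red, were past an adjusted p of 0.05, and the medians of the PERK list were -0.36 and 0.60.

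In the remaining lists 0 genes passed the threshold in any of the 7 comparisons. Of 17 other ER chaperones and co-chaperones, 10 were above 0 and 7 below in anti-PD-L1 against exercise, with a median of 0.03. *Sec63*, a translocon partner of BiP, differed most clearly there, by 0.24 ± 0.10 with an adjusted p of 0.152 (limma). In exercise against control the same list had 7 above and 10 below 0, with *Sdf2*, the paralog of *Sdf2l1*, at 0.21 ± 0.08 and the prolyl isomerase *Fkbp11* at -0.35 ± 0.15. The nucleotide exchange factor of BiP, *Hyou1*, was at -0.19 ± 0.09.

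Of 11 other disulfide isomerases and oxidases, 4 were above 0 and 7 below in anti-PD-L1 against exercise tumours. *Pdia5* had 9.96, 8.34, 11.8 and 7.33 FPKM in anti-PD-L1 and 14.97, 16.9, 13.5 and 15.02 FPKM in exercise tumours, without overlap. Its difference of -0.65 ± 0.18 had an adjusted p of 0.0669 (limma), and 12.5% of all tested genes were without overlap there. *Ero1l*, the oxidase that recharges the isomerases, pointed the other way by 1.31 ± 0.37 with an adjusted p of 0.0767. It ranged from 52.2 to 149 FPKM in anti-PD-L1 and from 16.1 to 48.7 FPKM in exercise tumours.

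Of 15 tested genes of ER-associated degradation, 10 were above 0 and 5 below in that comparison. *Vcp*, the ATPase that pulls substrates from the membrane, had 172, 174, 172 and 139 FPKM in anti-PD-L1 and 202, 206, 197 and 213 FPKM in exercise tumours. Its values did not overlap, as in 12.5% of all tested genes, and its difference of -0.32 ± 0.08 had an adjusted p of 0.0636 (limma). *Derl1*, a channel component, differed by 0.25 ± 0.08 with an adjusted p of 0.107. In the combination against anti-PD-L1, 13 of the 15 were below 0 with a median of -0.09, beside 0.02 over all tested genes. *Derl3* was below the filter, with group means of at most 1.11 FPKM.

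Of 15 translocon and N-glycosylation genes, 6 were above 0 and 9 below in anti-PD-L1 against exercise, among them *Sec61b* at -0.34 ± 0.11 and *Ddost* at -0.24 ± 0.08, with adjusted p of 0.0976 and 0.104 (limma). In exercise against control 11 of the 15 were below 0, with a median of -0.14 and *Ssr3* at -0.27 ± 0.11. In anti-PD-L1 against control 13 of the 15 were below 0, with a median of -0.15 beside -0.04 over all tested genes. In the interaction 13 of the 15 were above 0, with a median of 0.13 beside 0.03. Of 9 genes of the OASIS family and of traffic between ER and Golgi, *Kdelr2*, a receptor that returns chaperones to the ER, was at -0.31 ± 0.15 in exercise against control. *Creb3l1* was at -1.06 ± 0.44 with an adjusted p of 0.231, on control values that ranged from 1.60 to 13.9 FPKM, against 1.78 to 2.62 FPKM in exercise tumours. In the combination against anti-PD-L1, 9 of the 9 were below 0 with a median of -0.12, beside 0.02 over all tested genes.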

How the data were processed

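Per library the authors deposited 1 file of FPKM values with 2 decimals. The submitters' processing notes name HISAT, Bowtie2 and the build GRCm38.p6 without versions. The program behind the FPKM and the read depth are unknown from the sources used here. FPKM hold no counts, so no count test was run.

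The 11868 genes that reached 1 FPKM in 4 or more of 16 libraries were tested on log2(FPKM + 1), which understates changes of low genes. One limma 3.58.1 model in R 4.3.3 (trend and robust empirical Bayes, group as only term) gave 7 contrasts. P-values were adjusted by Benjamini-Hochberg within each contrast over all tested genes, at 0.05. Of the forms foreseen for counts and for normalized units, the second applied. The fit was tested on simulated data. No libraries held identical values.

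The 10 genes and all lists were chosen with earlier results of these data known. All 10 genes are named in each comparison, and of each list described up to 4 genes with the smallest p, and every gene past the threshold; *Atf4*, *Ern1*, *Hyou1*, *Derl3*, *Epcam*, *Krt8*, *Krt18* and *Sdc1* are named beyond that rule, after their values were seen. *Ero1l* and *Ero1lb* stand for Ero1a and Ero1b, and Vimp was dropped as an older symbol of *Selenos*. Coordinates and promoters come from RefSeq (GRCm38.p6). Alternatives were quantile and median scaling, no filter, a pseudocount of 0.1, limma without trend and robust settings, only the groups compared, a replicate block, library weights and leaving out each library. Leaving out pairs of libraries was added after seeing the data.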

Additional observations from a re-analysis of the deposited data

Results flagged for a closer look

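Of 40 groups of 4 libraries (10 genes in 4 groups), 3 held a library far from the others by Dixon's criterion, a rule by which chance alone picks about 1 group in 20. *Herpud1* stood at 95.65 FPKM in anti-PD-L1 library 4, with 57.9 to 58.3 FPKM in the other 3 anti-PD-L1 libraries. That library had 4071 FPKM of red blood cell markers, and the part of those cells in the value was not tested. *Dnajb9* stood at 17.26 FPKM in combination library 1, with 14.8 to 15.2 FPKM in the other combination libraries. *Pdia6* stood at 123.01 FPKM in combination library 4, with 109.5 to 110.5 FPKM in the others.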

How the results depend on the processing

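Each of the 10 genes stayed short of the threshold under the alternative scalings, filter, pseudocount and limma settings. Of 1810 alternative values in 70 comparisons 3 passed it, all of *Hsp90b1*. With library weights 1 of the 10 genes passed in exercise against control and 1 in anti-PD-L1 against exercise, where weights let 19.2% and 6.93% of all tested genes pass, and leaving out single libraries gave 0 to 1 there. The sign changed in 85 of the 1810, nearly always for differences within 1 standard error of 0, which the text counts by sign only. The 4 others came without control libraries 1 and 2 together: *Hspa5* was at 0.000502 in exercise against control, and *Pdia6* at 0.0298 in exercise, 0.0379 in anti-PD-L1 and 0.0382 in combination against control.

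Counts over all tested genes moved far more, and the cause was not tested. Anti-PD-L1 against exercise gave 188 genes, but 298 with quantile scaling, 77 without the filter, 823 with weights, 34 without control library 2 and anti-PD-L1 library 4, and 9 to 422 with 1 library left out. Anti-PD-L1 against control gave 30, but 117 with quantile and 77 with median scaling, 8 without the filter, 835 with weights, 2 and 4 without the pairs of libraries, and 6 to 768 with 1 left out. Exercise against control gave 0, but 2274 with weights and up to 611 without exercise library 1. Combination against exercise gave 0, but 222 with weights, 2 with either scaling, 1 with only the groups compared, 5 without either pair and up to 184 without exercise library 1. The interaction gave 0, and up to 223 without exercise library 1.

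Libraries with the same replicate number did not deviate together: over 24 such pairs the correlation of deviations from the group means ran from -0.62 to 0.34, with a median of -0.07 and 6 above 0.1, so the numbers were not taken as pairs. With the replicate number as a block, 15 genes passed in anti-PD-L1 against control and 62 in anti-PD-L1 against exercise, and 0 of the 10 genes in any comparison. The block ended the calls of *Ddit3* (limma adjusted p of 0.0838) and *Nkg7* (0.0546) but not that of *Trib3* (0.0280). FPKM carry no depth, so counting error could not be set beside these values.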
